A study of Mus musculus with 18 samples.

Results

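S100 genes encode small calcium-binding proteins, and 8 of them are described here in mouse colon tumour RNA: S100a1, S100a4, S100a6, S100a10, S100a11, S100a13, S100a14 and S100a16. They were chosen by gene symbol from a table of 54354 rows in which 20 symbols begin with S100, and the rule used no measured value, although these 8 of the 20 were listed with earlier results of these data known. S100 proteins carry a pair of EF-hands, the loops that hold calcium, and mostly act as dimers that open on calcium binding and then grip a target protein. Their targets include annexins, which bind membranes, and parts of the cytoskeleton, and some members are released and act on receptors of neighbouring cells. In gut epithelium and its tumours S100 proteins are known as markers of cell state and of invasion.

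The series holds 18 libraries labelled as wild-type colon tumour and made by poly(A) selection with a strand-specific kit. The labels give 4 diets: control diet (CD, 3 libraries), high fat diet (HFD, 5 libraries), serine-free control diet (SF_CD, 5 libraries) and serine-free high fat diet (SF_HFD, 5 libraries). The extraction protocol speaks of organoids, which are cultures grown from tissue, while the series design speaks of sorted living cells, and the labels do not settle which applies. No tumour driver, age, strain or animal number is given in the sources used here, so the libraries of a group may share an animal or a culture and p-values measure only the spread between libraries.

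In the CD and HFD columns the row names do not match the genes counted: Actb, Gapdh, Eef1a1 and Epcam stood at 0 in all 8 libraries, as did S100a4, S100a6, S100a10, S100a13, S100a14 and S100a16. All values below therefore come from the 10 serine-free libraries, and the comparison is of fat content between diets that both lacked serine. Total counts lay between 499774 and 12841275 in SF_CD, and between 727610 and 12146933 in the other group. SF_CD libraries 1 and 5 and SF_HFD library 5 held under 1000000 counts, and ribosomal RNA took 2.08% to 22.0% of counts in SF_CD against 2.97% to 7.19% in SF_HFD. Colon epithelial markers were abundant as a sum in every library. Their CPM (counts scaled to a common library size) summed over 12 genes to 2596 to 6580 in SF_CD and 4951 to 11607 in SF_HFD. Krt19 and Lgals4 were the most abundant of the 12, while Cdx1 stood at 0 in 4 libraries and at most at 4.16 CPM. Of 10 T, B and NK cell markers, 7 stood at 0 in all 10 libraries, Cd3e, Cd8a and Ms4a1 among them.

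All 8 genes lie on chromosome 3 (mm10), within the cluster that holds most of the family. S100a1 (90511034 to 90514392, minus strand) and S100a13 (90514435 to 90524581, plus strand) are divergent neighbours. They are followed on the plus strand by S100a14 (90526856 to 90528837), S100a16 (90537254 to 90543151), S100a4 (90603771 to 90606045) and S100a6 (90612882 to 90624181), so that 6 genes lie within 113148 bases. S100a11 (93520488 to 93526287) and S100a10 (93555080 to 93564643) form a separate pair, 28793 bases apart, that begins 2896307 bases beyond the end of S100a6.

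These stretches of promoter sequence are shown because they belong to genes whose levels carry the results below. RefSeq promoter windows on GRCm38.p6, reaching from 250 bases before to 50 after a start, were found for 6 of the 8 genes. The first sequence joins S100a1 and S100a13, and its capitals mark the 42 bases between their GENCODE starts, shown with 30 bases on each side. The others are the 250 bases before a start. Their capitals mark TATAAA, the letters of the box named after them, or TGANTCA. The latter is a loose form of the AP-1 core, in which N was any base. All sequences are written on the plus strand.
S100a1 and S100a13, chr3:90514363-90514464: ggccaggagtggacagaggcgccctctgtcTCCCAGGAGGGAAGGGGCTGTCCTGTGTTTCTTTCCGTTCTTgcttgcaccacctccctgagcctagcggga
S100a16, chr3:90540896-90541145: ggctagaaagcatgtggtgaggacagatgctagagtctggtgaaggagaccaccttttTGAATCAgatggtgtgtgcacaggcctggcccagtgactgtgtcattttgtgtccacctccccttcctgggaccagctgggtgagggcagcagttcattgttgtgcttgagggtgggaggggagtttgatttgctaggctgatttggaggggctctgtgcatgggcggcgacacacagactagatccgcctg
S100a11, chr3:93520246-93520495: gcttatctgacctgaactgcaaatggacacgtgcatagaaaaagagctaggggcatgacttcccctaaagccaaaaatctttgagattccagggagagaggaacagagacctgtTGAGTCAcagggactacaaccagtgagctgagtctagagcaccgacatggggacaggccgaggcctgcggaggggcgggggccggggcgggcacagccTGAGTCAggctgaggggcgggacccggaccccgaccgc
S100a4, chr3:90603520-90603769: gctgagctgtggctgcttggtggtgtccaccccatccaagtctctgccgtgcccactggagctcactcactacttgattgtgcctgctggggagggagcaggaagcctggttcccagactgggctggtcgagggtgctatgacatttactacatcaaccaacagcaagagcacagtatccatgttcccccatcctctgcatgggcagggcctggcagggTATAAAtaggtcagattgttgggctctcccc

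In S100a11 TGAGTCA began 136 and 38 bases before the start, and in the printed S100a16 window TGAATCA began 192 bases before it. That window belongs to a second RefSeq start, inside the annotated gene and downstream of its GENCODE start, while the window at the GENCODE start held no TGANTCA. In S100a4 the box began 31 bases before its start. TGANTCA was present in 2 of the 7 windows of these genes, and in 7.81% of all 32851 RefSeq windows. The box was present in 1 of 7, against 13.6% of all windows. The remaining motifs searched, on both strands, were those of TEAD, KLF, SP1 and GATA factors and the E-box. CATTCC (TEAD) was in 0 of 7 and in 14.7% of all windows, CCCGCCC (KLF or SP1) in 1 of 7 and 25.6%, and CCACACCC (KLF) in 0 of 7 and 3.56%. The GATA-factor letters AGATAA were in 1 of 7 and 11.2%, and the E-box letters CANNTG in 5 of 7 and 72.3%. These matches describe letters in the windows and were not related to binding.

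All 8 transcripts were detected in all 10 libraries, and together they took 0.353% to 1.09% of all counts in SF_CD and 0.605% to 0.969% in SF_HFD. Their summed level was 6267 ± 3549 CPM in SF_CD (SD, n = 5) and 7351 ± 1643 in SF_HFD (SD, n = 5). Here and below CPM is scaled by TMM factors, which correct library totals for composition, and ± is the SD over 5 libraries. In these bulk libraries a change in the number of cells of a type and a change in RNA per cell cannot be told apart.

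Per kilobase of the longest annotated transcript, S100a6 stood first at a mean of 3365 CPM per kilobase over the 10 libraries. S100a10 followed at 1638, S100a11 at 1378 and S100a14 at 999. S100a16 at 371 and S100a1 at 220 were intermediate, and S100a13 at 109 and S100a4 at 42.9 were lowest. S100a6 exceeded S100a10, S100a14 exceeded S100a16, S100a1 exceeded S100a13, and S100a13 exceeded S100a4 in 10 of 10 libraries. The other neighbours were not separated in every library: S100a10 exceeded S100a11 in 6 of 10, S100a11 exceeded S100a14 in 7 of 10, and S100a16 exceeded S100a1 in 7 of 10. For this length the order differed by diet. In SF_CD S100a11 (1480) stood above S100a10 (1368) and S100a1 (240) above S100a16 (230). In SF_HFD S100a10 (1909) stood above S100a11 (1275) and S100a16 (512) above S100a1 (201). These differences did not hold for other lengths. In SF_CD with the shortest coding transcript S100a10 (1964) stood above S100a11 (1480), and S100a16 (615) above S100a1 (281). With the mean transcript length the SF_CD values of the same pairs were 1585 above 1480, and 331 above 259. With the shortest coding transcript as length S100a14 took place 2, S100a10 place 3 and S100a11 place 4, so the order of these 3 depends on which transcript is counted.

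No S100 gene of the 8 passed the test between the diets. All 8 were among the 11780 genes tested with edgeR's quasi-likelihood test, and 0 were called at an adjusted p under 0.05, against 0.323% of all genes tested (38 genes). A p that misses the threshold does not show that levels were alike. None had an unadjusted p under 0.05, which 11.6% of all genes had, and none was called by DESeq2 or by limma-voom. In 0 of the 8 did all SF_HFD libraries lie to the same side of all SF_CD libraries, against 3.65% of all genes tested. The fold change was above 0 for 5 of the 8, with a median of 0.14 on the log2 scale (SF_HFD over SF_CD), against 51.4% and a median of 0.02 over all genes. Standard errors of the 8 genes ran from 0.35 to 0.62 on that scale.

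**Figure D1:**
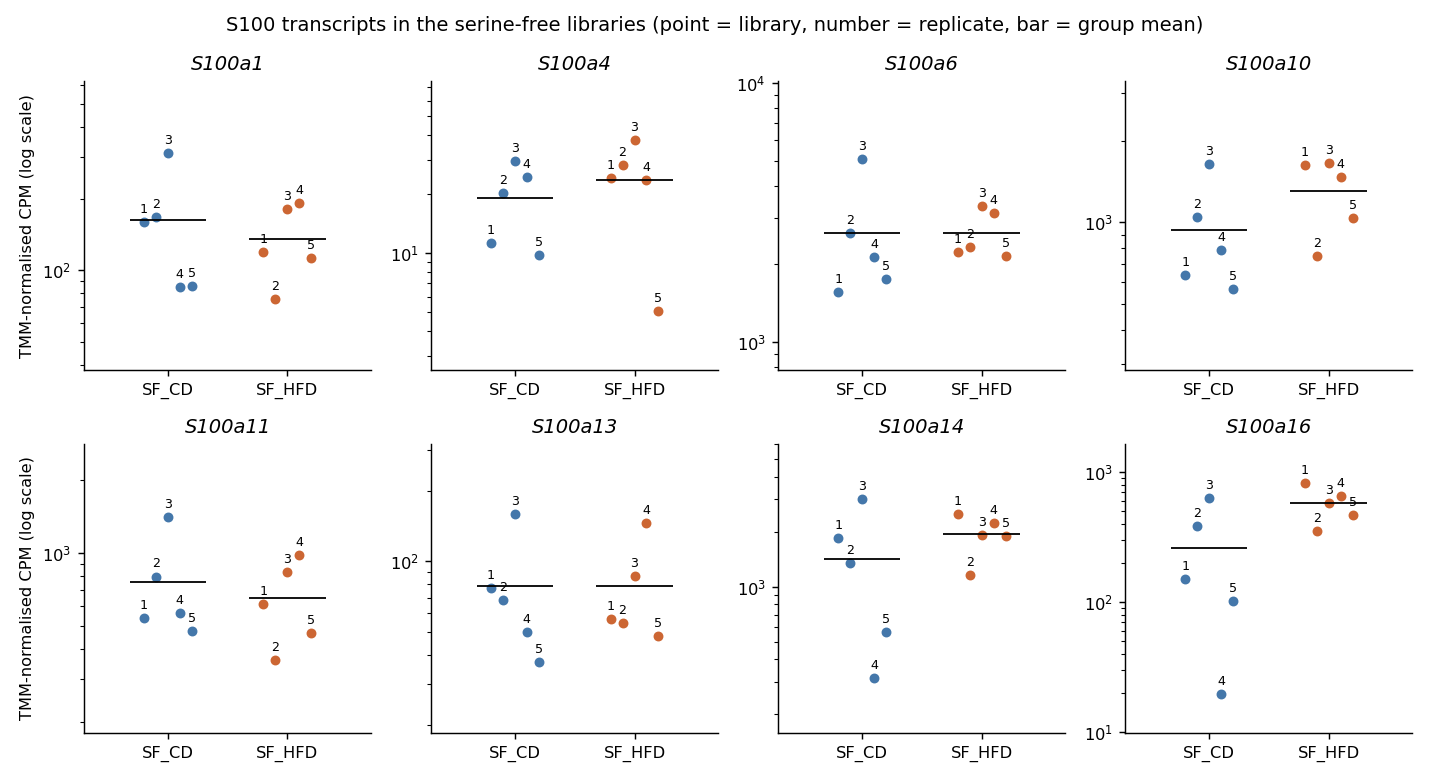
Level of each S100 gene in the 10 serine-free libraries, as TMM-scaled CPM on a log axis, with 1 point per library, its replicate number above it, and a bar at the group mean. SF_CD library 3 is the highest SF_CD library for all 8 genes, and SF_CD library 4 the lowest of the 10 for S100a14 and S100a16.

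S100a10 and S100a11 are the annexin-binding pair. S100a10, also called p11, does not need calcium to bind Anxa2, with which it forms a membrane complex that serves as a plasminogen receptor. Its level was 638, 1045, 1645, 788 and 569 CPM in SF_CD libraries 1 to 5, and 1628, 748, 1658, 1469 and 1034 CPM in SF_HFD libraries 1 to 5. SF_HFD library 3 stood above every SF_CD library, SF_HFD libraries 1 and 4 above all but SF_CD library 3, and the groups overlapped. The means were 937 ± 436 and 1308 ± 400 CPM, a log2 fold change of 0.48 ± 0.35 (SE) with an edgeR adjusted p of 0.636. Without SF_CD library 3 the log2 fold change was 0.79, which did not pass either.

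S100a11, which binds Anxa1 in a calcium-dependent way, was measured at 539, 798, 1408, 563 and 475 CPM in SF_CD and at 616, 361, 833, 981 and 467 CPM in SF_HFD. The lowest value was in SF_HFD library 2 and the highest in SF_CD library 3. The means of 756 ± 384 and 652 ± 256 CPM gave a log2 fold change of -0.22 (SE 0.37), with an adjusted p of 0.876 by edgeR. This difference took the opposite sign, 0.14, without SF_CD library 3. Of the 31-base words of S100a11 transcripts, 48.9% also occur in the pseudogenes Gm12854, Gm7665 and Gm29240, which hold 2, 3 and 2 counts over the 10 libraries.

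S100a6, or calcyclin, a growth-related S100 protein that binds Cacybp, was the most abundant. It reached 1558, 2632, 5078, 2136 and 1752 CPM in SF_CD and 2225, 2319, 3341, 3150 and 2155 CPM in SF_HFD. SF_CD library 3 stood above all others, and SF_CD libraries 1, 4 and 5 stood below every SF_HFD library. The group means were 2631 ± 1428 and 2638 ± 562 CPM, with a log2 fold change of 0.00 with a standard error of 0.35 (adjusted p by edgeR, 0.998). Its sign was not fixed: the value was -0.25 over the 7 libraries with at least 1000000 counts and 0.39 without SF_CD library 3.

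S100a4, known as metastasin, binds non-muscle myosin and was the least abundant of the 8. It stood at 11.3, 20.3, 29.4, 24.5 and 9.74 CPM in SF_CD and at 24.3, 28.1, 37.7, 23.5 and 5.05 CPM in SF_HFD. The 3 lowest values were in the 3 shallow libraries, where they rested on 5, 5 and 4 counts. The log2 fold change was 0.28 with a standard error of 0.45 (adjusted p by edgeR, 0.870) between means of 19.0 ± 8.46 and 23.7 ± 11.9 CPM, and 0.06 to 0.50 with single libraries left out. S100a4 shares 49.2% of its 31-base words with Gm42674, a gene model overlapping it on the same strand, which holds 1 count in all 10 libraries, so the division of reads between them is uncertain.

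S100a1, best known for control of calcium release in muscle, and S100a13, which takes part in the release of Fgf1 and Il1a, share the start region printed above. S100a1 was measured at 160, 168, 313, 85.1 and 85.7 CPM in SF_CD and at 119, 76.0, 181, 191 and 112 CPM in SF_HFD. S100a13 was measured at 76.6, 68.4, 159, 50.1 and 37.0 CPM in SF_CD and at 56.7, 54.4, 86.5, 146 and 48.0 CPM in SF_HFD. SF_CD library 3 was the highest for both genes and SF_HFD library 4 came next for both.

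The means of S100a1 were 162 ± 92.8 and 136 ± 48.8 CPM, a log2 fold change of -0.26 with a standard error of 0.40 (adjusted p by edgeR, 0.859), which was 0.14 without SF_CD library 3. Those of S100a13 were 78.2 ± 47.8 and 78.2 ± 40.4 CPM, a log2 fold change of -0.01 with a standard error of 0.43 (adjusted p by edgeR, 0.997). The S100a13 value ran from -0.37 to 0.45 when single libraries were left out, the latter without SF_CD library 3. The ratio of S100a1 to S100a13 CPM varied 1.86-fold over the 10 libraries, from 1.32 to 2.45, while each gene alone varied 4.11-fold and 4.30-fold. A narrow range was not particular to this pair: the ratio of S100a1 to the distant S100a11 ran from 0.151 to 0.297.

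S100a14 and S100a16 are neighbours 8417 bases apart. S100a14 is found mainly in epithelia, and S100a16 is a widely expressed member with a single working calcium site per chain. S100a14 stood at 1855, 1354, 3026, 317 and 565 CPM in SF_CD and at 2492, 1151, 1924, 2233 and 1888 CPM in SF_HFD. The SF_CD libraries spanned the range of SF_HFD and beyond it on both sides. The log2 fold change was 0.44 with a standard error of 0.48 (adjusted p by edgeR, 0.772), from 1423 ± 1087 to 1938 ± 504 CPM. Leaving out single libraries gave 0.18 to 0.93, the latter without SF_CD library 3.

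S100a16 had the largest fold change of the 8. Its level was 151, 388, 637, 19.7 and 101 CPM in SF_CD and 827, 354, 578, 659 and 470 CPM in SF_HFD. SF_CD libraries 2 and 3 lay within the SF_HFD range and the other 3 below it, library 4 with 260 counts at a total of 12841275. The means were 259 ± 252 and 577 ± 180 CPM, a log2 fold change of 1.15 ± 0.62 (SE) with an edgeR unadjusted p of 0.0812 and adjusted p of 0.493. Without SF_CD library 3 the SF_CD mean was 165 CPM and the log2 fold change 1.81, the highest over 19 other settings of the fit, none of which called the gene.

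**Figure D2:**
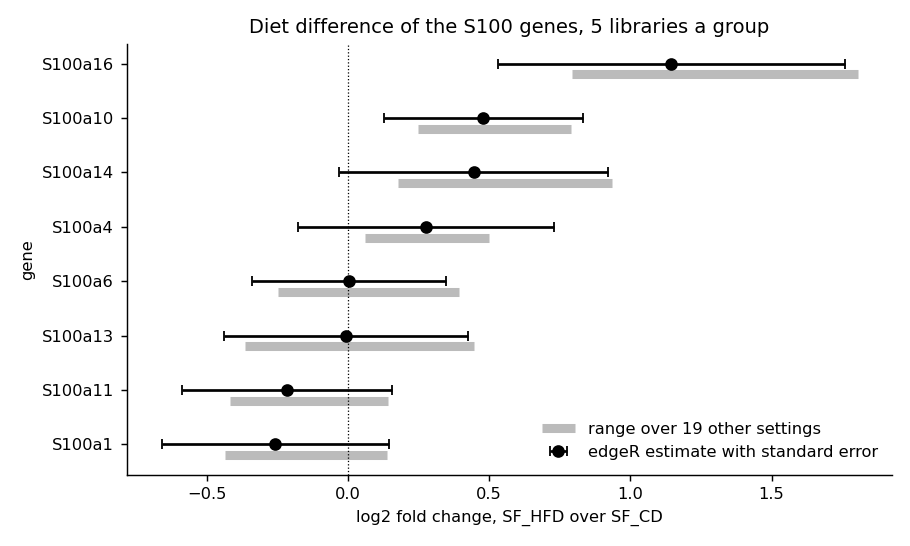
Log2 fold change of each S100 gene, SF_HFD over SF_CD, with points and bars for the edgeR estimate and its standard error (5 libraries a group) and a grey band for the range over 19 other settings. S100a16 lies highest at 1.15 and the bands of S100a1, S100a6, S100a11 and S100a13 cross 0.

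Markers of other cell types differed between the diets. Of 6 tested smooth muscle and pericyte markers, 6 were higher in every SF_HFD than in every SF_CD library, and 3 rose in the edgeR test: Acta2 from 6.79 ± 5.45 to 97.6 ± 18.1 CPM, Actg2 from 1.54 ± 2.24 to 40.3 ± 9.10, and Myl9 from 1.77 ± 1.23 to 46.9 ± 7.90 (adjusted p = 0.00232, 0.0159 and 0.000156). Their summed level over 8 genes was 3.08 to 24.4 CPM in SF_CD and 168 to 258 in SF_HFD. Among 8 tested fibroblast markers Postn rose, from 0.668 ± 0.744 to 7.52 ± 0.922 CPM (edgeR adjusted p = 0.00728). The fold change was above 0 in 7 of the 8, with a median of 1.06 on the log2 scale. An unadjusted edgeR p under 0.05 was found for 4 of the 8, against 11.6% of all genes. Summed over 12 fibroblast genes, of which Fn1 and Vim were the most abundant, the level was 52.7 to 236 CPM in SF_CD and 124 to 230 in SF_HFD. Among 5 tested macrophage and dendritic cell markers Fcer1g fell, from 49 counts in SF_CD to 1 count in SF_HFD (edgeR adjusted p = 0.00826). The fold change was above 0 in 1 of the 5, with a median of -0.68. Lyz2, named for its values outside the rule for named genes, was also lower in every SF_HFD library (34.4 ± 26.6 against 4.40 ± 6.07 CPM, edgeR adjusted p = 0.0760). Summed over 11 genes, of which Cd14 and Cd68 were the most abundant, the level was 51.5 to 127 and 59.9 to 105 CPM. The fold change of colon epithelial markers was above 0 in 10 of 11 tested, with a median of 0.69 on the log2 scale, and none was called. The part of these cell types in the S100 levels was not tested.

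S100a16 and S100a14 were also the genes that varied most among the SF_CD libraries. The coefficient of variation of S100a16 within SF_CD was 97.0%, at percentile 98.0 of 358 genes of like level, whose median was 43.6%. That of S100a14 was 76.3%, at percentile 93.8 of 80 genes. Within SF_HFD they were 31.2% (percentile 72.1) and 26.0% (percentile 57.5). The difference between the groups in spread was not tested.

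Over the 10 libraries the highest value of S100a16 was 41.9 times the lowest, that of S100a14 9.56 times and that of S100a4 7.47 times, while S100a6 varied 3.26-fold and S100a10 2.92-fold. SF_CD library 4 held the lowest S100a16 value, and the next lowest SF_CD value was 101 CPM. The summed epithelial markers in that library were 3084 CPM, above the 2906 of SF_CD library 1 and the 2596 of library 5, where S100a16 and S100a14 were higher. Single markers differed: in SF_CD libraries 4, 1 and 5 Krt19 stood at 1265, 902 and 779 CPM, whereas Lgals4 stood at 46.2, 340 and 389 and Cdx2 at 6.22, 27.1 and 11.7. SF_CD library 4 was the lowest of the 10 for Lgals4, Cdx2 and Cldn7, and the part of epithelial cells was not tested.

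The make-up of the 8 genes does not depend on library scaling. S100a6 gave 43.1% ± 8.56 of their summed counts in SF_CD and 36.5% ± 6.42 in SF_HFD. S100a14 gave 21.3% ± 10.9 and 26.4% ± 4.28, S100a10 15.6% ± 2.77 and 17.5% ± 2.26, and S100a11 12.4% ± 1.33 and 8.62% ± 1.69. S100a1 gave 2.57% and 1.81%, S100a13 1.23% and 1.04%, and S100a4 0.333% and 0.328%. The share of S100a16 was 3.50% ± 2.17 in SF_CD, between 0.495% and 5.99%, and 7.81% ± 1.47 in SF_HFD, between 6.69% and 10.3%. It was the 1 share of 8 whose groups did not overlap, and 1.08% of all genes tested did not overlap when set against the same sum. Shares add to a fixed total, so they are not independent of each other.

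**Figure D3:**
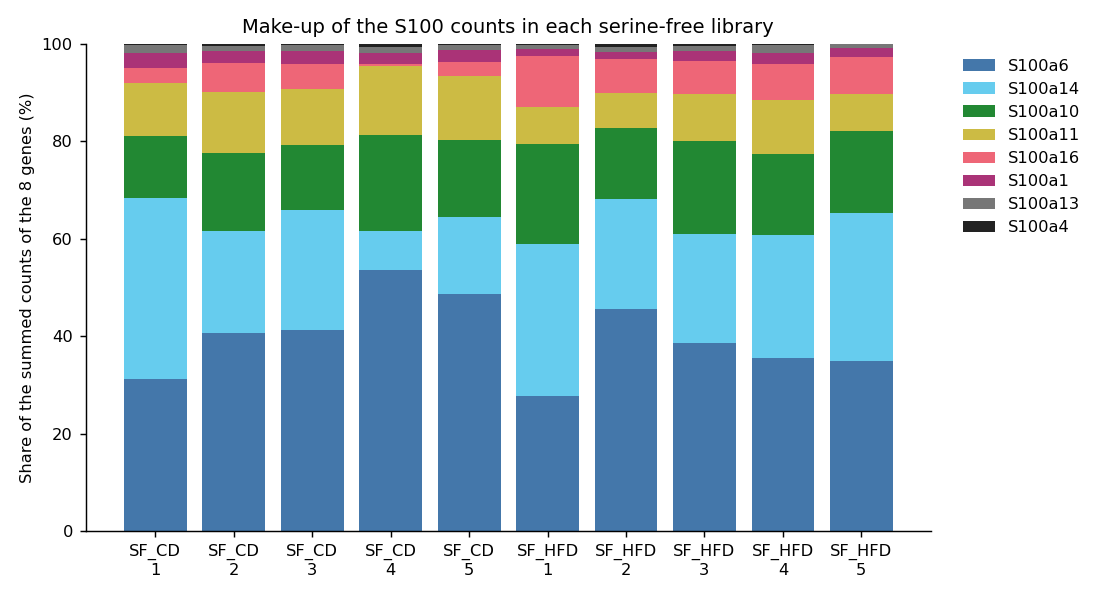
Share of each S100 gene in the summed counts of the 8 genes, in percent, with 1 stacked bar per serine-free library. S100a6 is the largest block in 8 of the 10 bars, S100a14 is larger in SF_CD library 1 and SF_HFD library 1, and S100a16 takes 6.69% to 10.3% in the SF_HFD bars and 0.495% to 5.99% in the SF_CD bars.

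Ratios between the genes separated the diets in a few cases. Of the 28 ratios among the 8 genes, 4 did not overlap between the groups. The background was 3.32% over 6161805 pairs of the 3511 genes whose log2 CPM averaged 5 or more, a pool that held 7 of the 8 genes and 21 of their ratios, the 4 among them. The ratio of S100a10 to S100a11 was 1.18, 1.31, 1.168, 1.40 and 1.20 in SF_CD and 2.64, 2.07, 1.99, 1.50 and 2.21 in SF_HFD. Its mean was 1.25 ± 0.10 in SF_CD and 2.08 ± 0.41 in SF_HFD, a log2 difference of 0.71.

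The other 3 ratios all held S100a16. Its ratio to S100a11 was 0.280, 0.486, 0.452, 0.0351 and 0.213 in SF_CD and 1.34, 0.981, 0.694, 0.671 and 1.01 in SF_HFD. The log2 difference was 2.08, and for its ratios to S100a1 and S100a6 it was 2.05 and 1.77. Each of the 4 had an exact two-sided permutation p of 0.00794, the smallest that the 252 assignments of 5 and 5 libraries allow. Any ratio whose groups do not overlap has this p, so it restates the non-overlap and adds no support. Adjusted over the 28 ratios it became 0.0556, so 0 ratios passed. An unadjusted exact p under 0.05 was found for 9 of 28, most of which hold S100a16. No share over all pairs of genes is at hand for that threshold, so this count shows no excess. Over the 7 libraries with at least 1000000 counts 7 of the 28 ratios did not overlap, the same 4 and those of S100a14 to S100a1, S100a11 and S100a16. With these fewer libraries the background over all pairs of the 3511 genes was 20.2%. The like share of the S100 ratios is 7 of the 21 in that pool. Ratios that share a gene are not independent, and the excess was not tested. These ratios were examined after the levels had been seen.

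**Figure D4:**
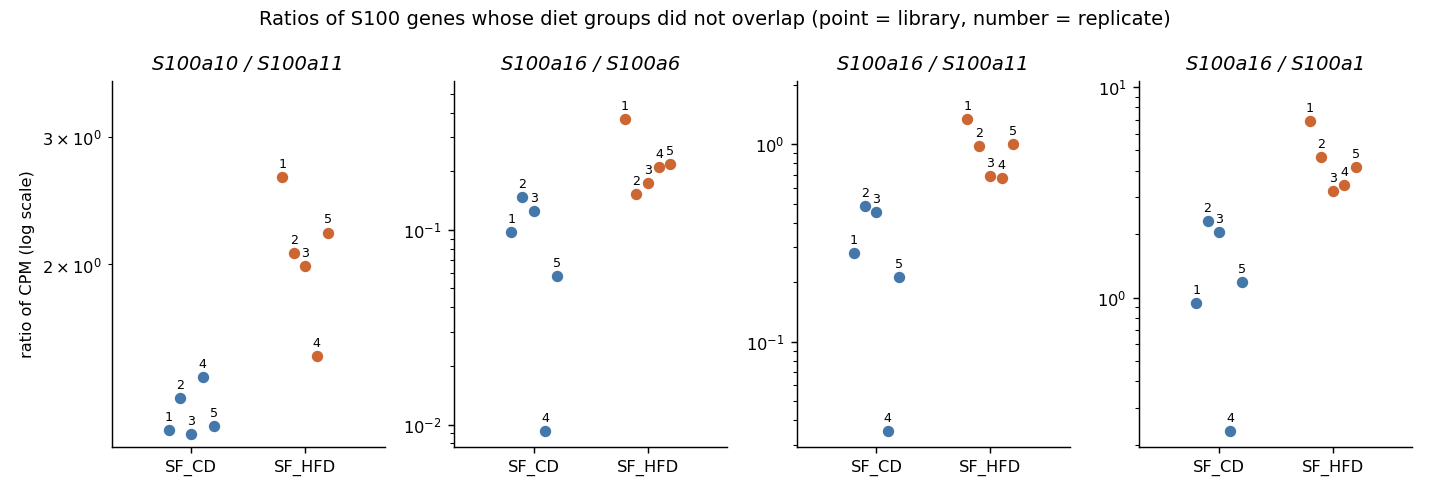
The 4 ratios of S100 genes whose diet groups did not overlap, as ratios of CPM on a log axis, with 1 point per library and its replicate number. The ratio of S100a10 to S100a11 lies between 1.168 and 1.40 in SF_CD and between 1.50 and 2.64 in SF_HFD.

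The levels of the 8 genes were positively correlated across libraries. Pearson's r of log2 CPM over the 10 libraries was above 0 in 28 of 28 pairs, with a median of 0.65 and a range from 0.10 to 0.92. Over all pairs of the 3511 genes 54.9% were above 0, the median was 0.10, and 19.5% exceeded 0.65. After adjustment over the 28 pairs 11 passed by a permutation test on r, 9 on Spearman's rho and 8 on both. Over the 7 deeper libraries 9 passed (exact permutation test). Of the 11, 6 kept a permutation p under 0.05 without the 2 libraries farthest from the median of the gene named first. Taken as deviations from the group means, the median r was 0.67.

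S100a1 and S100a13, the divergent pair, had an r of 0.89 and a rho of 0.88 (permutation test, p = 0.00024 and 0.00153, adjusted 0.00336 and 0.0143), and r was 0.88 without SF_HFD library 2 and SF_CD library 3. Among all pairs of the 3511 genes 2.89% had a higher r, and 1.96% had a higher r than S100a14 with S100a16. S100a1 and S100a11, far apart on the chromosome, had an r of 0.92 and a rho of 0.89 (permutation test, p = 0.0002 and 0.00128, adjusted 0.00336 and 0.0143), and r was 0.79 without the same libraries.

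S100a14 and S100a16 had an r of 0.91 and a rho of 0.93 (permutation test, p = 0.00137 and 0.00038, adjusted 0.00959 and 0.0106). Without SF_CD libraries 4 and 5, the farthest from the median of S100a14, r was 0.51 (permutation p = 0.204), so it was weaker with both left out. It was 0.79 without SF_CD library 4 alone and 0.91 without SF_CD library 5 alone, and 0.97 over the 7 deeper libraries, which keep library 4 (exact permutation test, p = 0.00278, adjusted 0.0194). S100a10 and S100a11 had an r of 0.73 and a rho of 0.78 (permutation test, p = 0.0162 and 0.0101, adjusted 0.0429 and 0.0378), and r was 0.74 without SF_CD libraries 1 and 5. As deviations from the group means r of this pair was 0.93.

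S100a4 took part in none of the 11 pairs: its r with S100a6, its nearest neighbour among the 8, was 0.60 (rho 0.67, permutation test, p = 0.0674 and 0.0392, adjusted 0.118 and 0.0646), and 0.69 without SF_CD library 5 and SF_HFD library 5. Its r with S100a14 was 0.10, the lowest of the 28 (rho 0.28, permutation test, p = 0.786 and 0.429, adjusted 0.786 and 0.462).

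**Figure D5:**
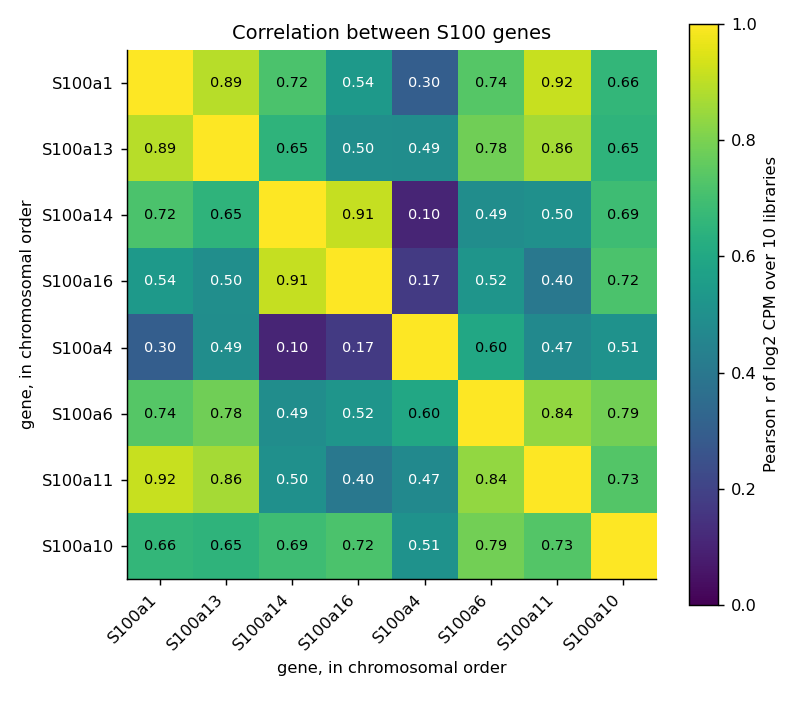
Pearson's r of log2 CPM over the 10 serine-free libraries for each pair of S100 genes, in chromosomal order on both axes, with the colour scale from 0 to 1. The highest values are 0.92 for S100a1 with S100a11, 0.91 for S100a14 with S100a16 and 0.89 for S100a1 with S100a13, and the S100a4 row is lowest.

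For each gene the 2 genes most like it by Pearson's r over the 10 libraries were sought among 3504 other genes whose log2 CPM averaged 5 or more. For S100a10 these were Bsg (0.96), a surface glycoprotein known as basigin, and Ly6a (0.95), the surface antigen Sca-1. For S100a14 they were Net1 (0.95), an exchange factor for RhoA, and Syt8 (0.95), and for S100a16 Syt8 (0.95) and Sqor (0.95), a mitochondrial enzyme of sulphide oxidation. In SF_CD library 4, where S100a16 was lowest, Syt8 stood at 2.88 CPM and Sqor at 24.0 CPM, also the lowest of the 10 libraries.

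For S100a1 and S100a11 the same 2 genes came first, Ociad2 (0.91 and 0.90) and Hilpda (0.88 and 0.90), a lipid droplet protein induced by low oxygen. S100a6 was nearest to Hnrnpdl (0.90), an RNA-binding protein, and Yipf5 (0.90). S100a4 was nearest to Vps4b (0.95), an ESCRT ATPase, and Gm6133 (0.94), and S100a13 to 3110040N11Rik (0.87) and Smim14 (0.82). These are the highest of 3504 values for each gene, taken from 10 shared libraries and are a description only. Over only the libraries with at least 1000000 counts, r of S100a4 was 0.615 with Vps4b and 0.74 with Gm6133. The r of every other member with its 2 named genes was 0.83 or more over those libraries.

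Known partners were not called with the diet. Of 30 annexins and other binding partners 25 were tested, 0 were called and the fold change was above 0 in 17, with a median of 0.16 on the log2 scale. Anxa1 was measured at 3825 ± 1999 CPM in SF_CD and 3099 ± 1003 in SF_HFD, and Anxa2 at 2506 ± 1024 and 2567 ± 854. Anxa11 (6.09 ± 3.21 and 21.4 ± 6.24 CPM, edgeR adjusted p = 0.144) and Stub1 (49.8 ± 19.4 and 72.4 ± 9.44 CPM, edgeR adjusted p = 0.610) did not overlap between the groups, with all SF_HFD libraries above all SF_CD libraries. They were 2 of the 25 tested, against 3.65% of all genes tested. The highest SF_CD value of Stub1 was 63.2 CPM and its lowest SF_HFD value 64.9 CPM. Myh10, a non-muscle myosin, had the lowest edgeR p of the list (28.6 ± 31.3 and 1.87 ± 0.922 CPM, log2 fold change -3.85 ± 0.90, adjusted p = 0.0832), and its groups overlapped. These 3 are named for their values, outside the rule for named genes.

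Over 5 pairs of an S100 gene and a partner, r of log2 CPM was 0.68 for S100a10 with Anxa2 (rho 0.60, permutation test, p = 0.0360 and 0.0733, adjusted 0.180 and 0.367) and 0.48 without SF_CD libraries 1 and 5. It was 0.55 for S100a11 with Anxa1 (rho 0.44, permutation test, p = 0.0991 and 0.203, adjusted 0.248 and 0.439) and 0.53 without SF_HFD library 4 and SF_CD library 3. For S100a6 with Cacybp r was 0.48, for S100a4 with Myh9 -0.15 and for S100a10 with Ahnak -0.26 (rho 0.39, -0.08 and -0.15, permutation test, p of r = 0.163, 0.7003 and 0.521). Over the 7 deeper libraries these 3 took the opposite sign, at -0.52, 0.54 and 0.66, while S100a10 with Anxa2 stood at 0.52 and S100a11 with Anxa1 at 0.60. After adjustment 0 of the 5 pairs passed.

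Among 11 receptors and plasmin system genes 8 were tested and 0 called, with a median of 0.10. Bsg, also described as a receptor for S100a9, was measured at 539 ± 318 CPM in SF_CD and 974 ± 422 in SF_HFD (edgeR adjusted p = 0.457), and the protease Ctsb at 288 ± 109 and 363 ± 175. Plg, the precursor of plasmin, stood at 0 counts in all 10 libraries. Of 17 EF-hand calcium sensors outside the family 15 were tested, 0 were called and the median was -0.02. Calm2, which encodes calmodulin, was measured at 1802 ± 642 CPM in SF_CD and 1729 ± 391 in SF_HFD.

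Of 17 other genes in or beside the chromosome 3 cluster 12 were tested and 0 called, with a median of 0.16. The most abundant were Rps27 (2222 ± 651 CPM in SF_CD and 2159 ± 808 in SF_HFD) and Tpm3 (323 ± 66.5 and 262 ± 25.7). Ilf2, an RNA-binding protein, was lower in every SF_HFD library (73.8 ± 7.36 against 137 ± 16.8 CPM, edgeR adjusted p = 0.233) and is named for that, outside the rule. It was the 1 gene of the 12 whose groups did not overlap, against 3.65% of all genes tested. Of 7 genes for large epidermal proteins with an S100-like start 3 were tested and 0 called, with a median of -0.69. Tchh stood at 23.7 ± 22.8 and 14.3 ± 12.2 CPM, and Crnn at 8.26 ± 14.3 and 6.29 ± 3.30.

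Of the other 12 S100 symbols the test covered 5 and called 0. S100a8, a subunit of the calprotectin of neutrophils, was measured at 3.77 ± 3.95 CPM in SF_CD and 12.2 ± 7.84 in SF_HFD, a log2 fold change of 1.60 ± 0.67 (SE, edgeR unadjusted p = 0.0297, adjusted 0.366). The SF_CD mean was 2.19 CPM without SF_CD library 3. Its partner S100a9 held 44 counts in SF_CD and 38 in SF_HFD and was not tested. Summed neutrophil markers, a list that includes S100a8 itself, were 169 to 599 CPM in SF_CD and 287 to 992 in SF_HFD. Most of this was Ly6g (268 ± 152 and 475 ± 282 CPM), while Cxcr2 went the other way (51.8 ± 15.5 and 32.8 ± 10.8 CPM). Csf3r, Retnlg, Mmp9, Elane and Mpo had group means of 0.474 CPM or less, so the sum mostly gives Ly6g. The part of neutrophils in S100a8 was not tested.

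S100a2, an epithelial member, had a log2 fold change of -1.20 ± 0.49 (SE, edgeR unadjusted p = 0.0257, adjusted 0.352), from 9.68 ± 4.48 to 4.42 ± 1.82 CPM. S100a7a, of the psoriasin group, stood at 27.1, 35.3, 284, 6.75 and 19.5 CPM in SF_CD and 11.3, 6.91, 35.5, 74.6 and 21.5 CPM in SF_HFD (log2 fold change -1.34 ± 0.86, edgeR adjusted p = 0.572). Its SF_CD mean of 74.6 CPM was 22.1 without library 3, and its SF_HFD mean of 29.97 CPM was 18.8 without library 4. S100a3 was measured at 4.46 ± 3.18 and 2.71 ± 2.23 CPM, and S100pbp, which encodes a protein that binds an S100 protein, at 1.84 ± 1.75 and 3.22 ± 2.45.

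The remaining symbols did not pass the filter on low counts. Over SF_CD and SF_HFD, S100b, a glial member, held 16 and 46 counts, S100z 14 and 49, S100g 12 and 9, S100a7l2 5 and 1, and S100a5 3 and 1. The pseudogene S100a11-ps stood at 0 in all 10 libraries.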

How the data were processed

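The authors deposited 1 table of estimated counts as whole numbers, and the submitters' processing notes name Salmon 1.3.0 and mm10. For the annotation release and the summing to genes nothing is stated in the labels. Salmon shares ambiguous reads among similar transcripts by an estimate, which makes counts of near-identical copies uncertain. Columns were matched to samples by the library name in the labels, and no column of values was left unused. Coordinates came from GENCODE M21, which held 94.7% of the row identifiers, and 1243 rows had no symbol.

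The 5 SF_CD and 5 SF_HFD libraries were compared with edgeR 4.0.16 (R 4.3.3): quasi-likelihood test, robust, TMM, filterByExpr, Benjamini-Hochberg adjustment over all genes tested, threshold 0.05. DESeq2 1.42.0 and limma 3.58.1 (voom with quality weights) were alternatives, as were RLE and upper quartile scaling, totals without ribosomal, mitochondrial and Malat1 rows, no filter, a filter of 10 counts in 5 libraries, a replicate block, and leaving out libraries. Correlations used log2 CPM with a prior count of 2 and 100000 permutations (exact enumeration over 7 libraries). Ratios were tested by exact permutation of mean log2 ratios. The same test was also run on simulated counts, where it missed most of the changes put in. A gene that is not called may therefore still differ. A floor of 3 counts was 0.234 to 6.00 CPM by library, which covers counting error only.

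Named were all 8 genes, the other S100 symbols with counts, the called genes of each list (up to 4) or its 2 most abundant, and the 2 genes most like each member; 1 result under this rule is not reported here. Members and lists were chosen with earlier results of these data known. The 28 ratios, the 5 partner pairs, the 7 motifs, the r of S100a14 with S100a16 without single libraries and the counts on Spearman's rho were added after values had been seen. The CD and HFD libraries were left out because their row names do not match the genes counted.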

Additional observations from a re-analysis of the deposited data

Results flagged for a closer look

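Of 26 groups of 5 libraries examined, 2 held a library that stood apart from the other 4 by Dixon's test at the 95% level, and chance gives about 1 in 20. S100a7a stood at 284 CPM in SF_CD library 3, against 6.75 to 35.3 in the other SF_CD libraries. S100pbp stood at 7.58 CPM in SF_HFD library 5, from 6 counts, and the mean of the other SF_HFD libraries was 2.13 CPM. Neither was among the 8 S100 genes described above, none of which had such a library in either diet group.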

How the results depend on the processing

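No S100 gene of the 8 was called in any of 19 other settings of the test. Unadjusted p under 0.05 occurred for S100a16 with the replicate block and for S100a10 and S100a16 without SF_CD library 3. The sign turned in 21 of 152 fold changes, all of S100a1, S100a6, S100a11 and S100a13, and the cause was not tested. S100a6 had log2 fold changes of -0.043 with RLE, -0.026 without ribosomal, mitochondrial and Malat1 rows, -0.0022 with the stricter filter, -0.043 with DESeq2, -0.058 with limma-voom and -0.25 without the 3 shallow libraries. S100a13 had 0.0070 with upper quartile scaling, 0.038 without a filter, 0.017 with limma-voom and 0.033 with the replicate block. Leaving out single libraries gave -0.44 to 0.14 for S100a1, -0.14 to 0.39 for S100a6, -0.42 to 0.14 for S100a11 and -0.37 to 0.45 for S100a13. The 38 called genes became 78 without a filter, 18 with the stricter filter, 371 with DESeq2, 168 with limma-voom and 22 with the replicate block. They ranged from 16 to 88 when single libraries were left out: 88 without SF_CD library 2, 24 without SF_CD library 4, and 19, 16 and 23 without SF_HFD libraries 2, 4 and 5. Ratios whose groups did not overlap numbered 4, and 7 over the 7 deeper libraries, where the background was 20.2%. Same-numbered libraries deviated together by correlations from -0.21 to 0.14, and 2 of 10 libraries correlated best with their own number, so the numbers were not taken to pair them. None of 224 group means and 16 shares moved by over 1 SD. Leaving libraries out of groups of 5 can hardly move a mean that far, so this does not show that the means are stable. Depth limits S100a4 most, with 4 or 5 counts in each shallow library.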
